A study of Homo sapiens with 24 samples.

Results

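The genes described here are 28 genes of cholesterol synthesis and handling, taken by name from the 26475 genes in the deposited RNA-seq files, all of which have a value in each of the 24 libraries. They comprise 6 genes of the mevalonate steps (ACAT2, HMGCS1, MVK, PMVK, MVD and IDI1), 2 that make longer prenyl diphosphates (FDPS and GGPS1), 11 that make squalene or carry it to cholesterol (FDFT1, SQLE, LSS, CYP51A1, TM7SF2, MSMO1, NSDHL, HSD17B7, EBP, SC5D and DHCR7), 4 that control the pathway (SREBF1, SREBF2, SCAP and INSIG1), 3 that move sterols inside the cell (STARD4, NPC1 and NPC2) and 2 of fatty acid synthesis that answer to the same regulators (FASN and SCD). RNA was measured, in medium with fetal bovine serum, in 786-M1A and OS-LM1 cells, metastatic derivatives of the human clear cell renal cell carcinoma lines 786-O and OS-RC2 that carry mutant VHL. In each line 4 libraries carried the short hairpin construct shPAX8-1, 4 carried shPAX8-2 and 4 carried sgNTC18, a guide RNA without a target in the genome. The hairpins were expressed from lentiviral vectors induced with doxycycline and deplete PAX8, a transcription factor of the renal lineage. No hairpin control is analysed here, so PAX8 depletion, the vector system and the experiment cannot be told apart in any comparison with sgNTC18. Both shPAX8-1 and shPAX8-2 are hairpins, but the sources do not say that they were in the same vector. Nothing states that the 4 replicates of a group are separate cultures, so the p-values measure the spread between these libraries.

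Cholesterol is built from acetyl-CoA through mevalonate, the isoprenoid diphosphates, squalene and lanosterol. Its enzymes are switched on together by SREBP2, the product of SREBF2, while SREBP1, the product of SREBF1, acts more on fatty acid genes. SCAP carries both proteins out of the endoplasmic reticulum when membranes are poor in sterol, and INSIG1 holds SCAP back when sterol is plentiful. In clear cell renal cell carcinoma the cytoplasm is filled with lipid and stored cholesterol, which gives the tumour its name.

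The constructs differ in the sequence that is loaded into the silencing complex and in where it pairs with PAX8. Both guides are shown because the first comparison is between them, with the seed (bases 2 to 8) in capitals.
shPAX8-1: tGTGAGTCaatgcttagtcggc
shPAX8-2: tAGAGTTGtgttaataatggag

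The shPAX8-1 guide pairs at chr2:113241690-113241711 (hg38), within an exon of PAX8 that is coding in some annotated transcripts, and the shPAX8-2 guide at chr2:113218122-113218143, in the 3′ UTR of the last exon. Both guides read as the plus strand and PAX8 lies on the minus strand.

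Promoter sequence was taken from RefSeq (GRCh38.p14) as the 250 bases before and the 50 bases from the start site, and 24 of the 28 genes matched an entry, with 32 such windows in all. ACAT2, FDFT1, SQLE and FASN had none. SREBPs are known to bind sterol regulatory elements together with the factor NF-Y, which binds the CCAAT box. Each window was searched on both strands for TCACNCCAC, one form of the sterol regulatory element, for CCAAT and for the E-box CACGTG. Matches that overlap on opposite strands, as in IDI1 and NSDHL, were each counted, and no CCAAT box or E-box overlaps the sterol element. The 4 windows below are those of MSMO1 and STARD4, among the genes with the largest difference between constructs, and of both SREBP genes, with every match in capitals.
MSMO1: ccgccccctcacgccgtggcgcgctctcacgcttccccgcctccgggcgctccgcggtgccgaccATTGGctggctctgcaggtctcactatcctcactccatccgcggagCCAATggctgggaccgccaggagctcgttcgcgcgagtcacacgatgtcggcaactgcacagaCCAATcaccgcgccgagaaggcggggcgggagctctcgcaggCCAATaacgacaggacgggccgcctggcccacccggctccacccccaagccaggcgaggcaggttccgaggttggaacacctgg
STARD4: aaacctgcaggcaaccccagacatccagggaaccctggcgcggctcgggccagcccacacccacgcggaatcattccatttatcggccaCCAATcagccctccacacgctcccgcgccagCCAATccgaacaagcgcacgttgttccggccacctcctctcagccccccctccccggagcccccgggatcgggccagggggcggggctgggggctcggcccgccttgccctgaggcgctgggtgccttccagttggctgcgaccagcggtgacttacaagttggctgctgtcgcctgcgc
SREBF2: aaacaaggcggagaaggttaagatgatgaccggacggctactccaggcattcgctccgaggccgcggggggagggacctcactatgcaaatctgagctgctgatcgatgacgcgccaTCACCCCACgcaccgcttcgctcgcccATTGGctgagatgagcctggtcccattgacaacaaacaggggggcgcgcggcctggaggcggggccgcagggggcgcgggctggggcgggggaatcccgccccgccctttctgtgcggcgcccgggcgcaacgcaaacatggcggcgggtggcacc
SREBF1: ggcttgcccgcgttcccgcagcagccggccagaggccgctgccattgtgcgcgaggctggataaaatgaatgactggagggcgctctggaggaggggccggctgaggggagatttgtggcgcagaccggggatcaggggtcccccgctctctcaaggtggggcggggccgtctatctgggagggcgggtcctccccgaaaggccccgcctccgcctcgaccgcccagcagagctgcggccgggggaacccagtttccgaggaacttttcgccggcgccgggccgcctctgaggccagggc

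They lie at chr4:165327419-165327718 on the plus strand, at chr5:111512486-111512785 on the minus strand, at chr22:41832855-41833154 on the plus strand and at chr17:17836937-17837236 on the minus strand. MSMO1 holds 4 CCAAT boxes and STARD4 holds 2. SREBF2 holds the only match to TCACNCCAC in the set, beginning 133 bases before its start site, and 1 CCAAT box. No motif was found in the SREBF1 window. Over the set, 19 of 24 genes had a CCAAT box in at least 1 window, where 39.7% of all genes had. By window the shares were 65.6% in the set and 34.6% of all 35116 windows. In 13 genes a single window held 2 or more, as did 10.8% of all windows, which is a share of windows and not of genes. MVK and NSDHL had 5 each. An E-box was found in 4 genes (LSS, SC5D, SCAP and INSIG1), in 15.6% of the windows of the set and 7.26% of all windows. The sterol element was found in 1.13% of all windows. These are letter matches in a short window, with no measurement of binding.

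**Figure D1:**
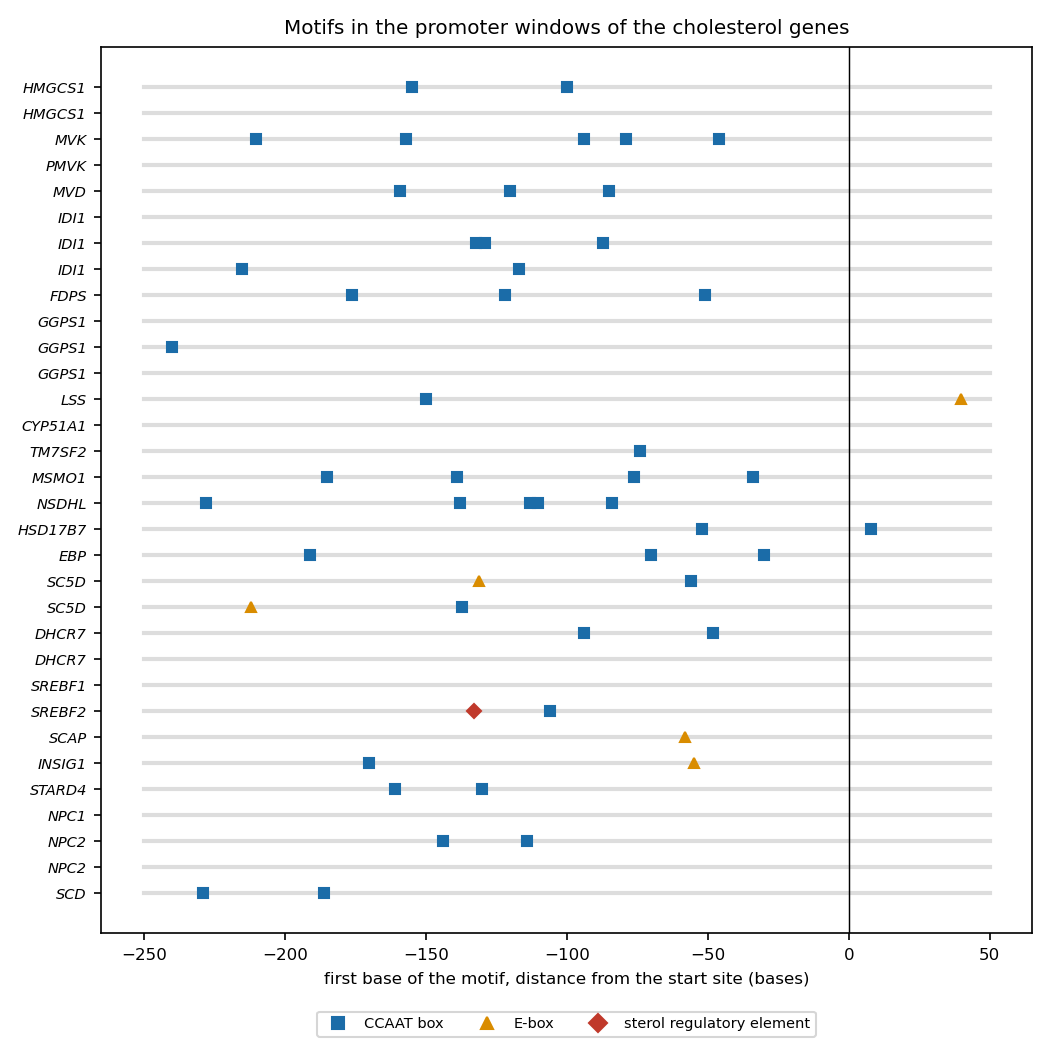
Position of each motif match (x axis, distance in bases of its first base from the start site at 0) in the 32 promoter windows of 24 genes, 1 grey line per window and a gene repeated where it has several. CCAAT boxes, drawn as squares, crowd the region before the start site in 19 genes, and the single diamond is the sterol regulatory element of SREBF2.

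The deposited counts summed to between 11634419 and 52059375 per library. PAX8 itself, the check of the labels, was at 292, 393, 360 and 319 CPM (counts scaled to a common library size) in the 4 sgNTC18 libraries of 786-M1A, 22.9, 21.9, 15.2 and 14.8 with shPAX8-1 and 41.4, 45.5, 42.6 and 40 with shPAX8-2. In OS-LM1 it was at 262, 279, 245 and 254, 85.6, 78.4, 59.8 and 89.2 and 76.2, 63.8, 97 and 79.9 in the same order. Every depleted library was below every sgNTC18 library of its line, and in 786-M1A shPAX8-1 left less PAX8 than shPAX8-2 (log2 fold change -1.18 ± 0.15 SE, edgeR adjusted p = 4e-05), which was not so in OS-LM1 (-0.05 ± 0.12, adjusted p = 0.8). Of 9 markers of renal epithelium and clear cell carcinoma, CA9, a hypoxia-induced carbonic anhydrase typical of the tumour, averaged at most 0.0405 CPM in any 786-M1A group and between 6.4 and 42.2 in OS-LM1. NDUFA4L2 was also under 1 CPM on average in 786-M1A. CD3E was at 0 in all groups, and PTPRC, PECAM1, CDH5, VWF and DCN averaged under 1 CPM in every group, while CD68 (group means of 80.8 to 350 CPM), PDGFRB in 786-M1A (300 to 782) and COL1A1 in OS-LM1 (16.2 to 166) were expressed.

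The first comparison asks whether both hairpins against PAX8 gave the same expression of the cholesterol genes. In 786-M1A they differed. In bulk RNA a change in every cell and a change in some of the cells cannot be told apart. Of the 28 genes, 21 were higher with shPAX8-1 than with shPAX8-2 at an adjusted p under 0.05 (edgeR's quasi-likelihood test, adjusted over the 14452 genes tested), against 24.2% of all genes, and 1 was lower, against 22.9% of all genes. The median log2 fold change was 0.90 over the 28 genes and -0.02 over all genes tested. In 20 genes all 4 shPAX8-1 libraries lay above all 4 shPAX8-2 libraries, which 18.0% of all genes did. The differences ran along the whole pathway, with 5 of 6 mevalonate genes, both prenyl diphosphate genes, 9 of 11 genes from squalene to cholesterol, INSIG1, 2 of 3 transport genes and both fatty acid genes higher.

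**Figure D2:**
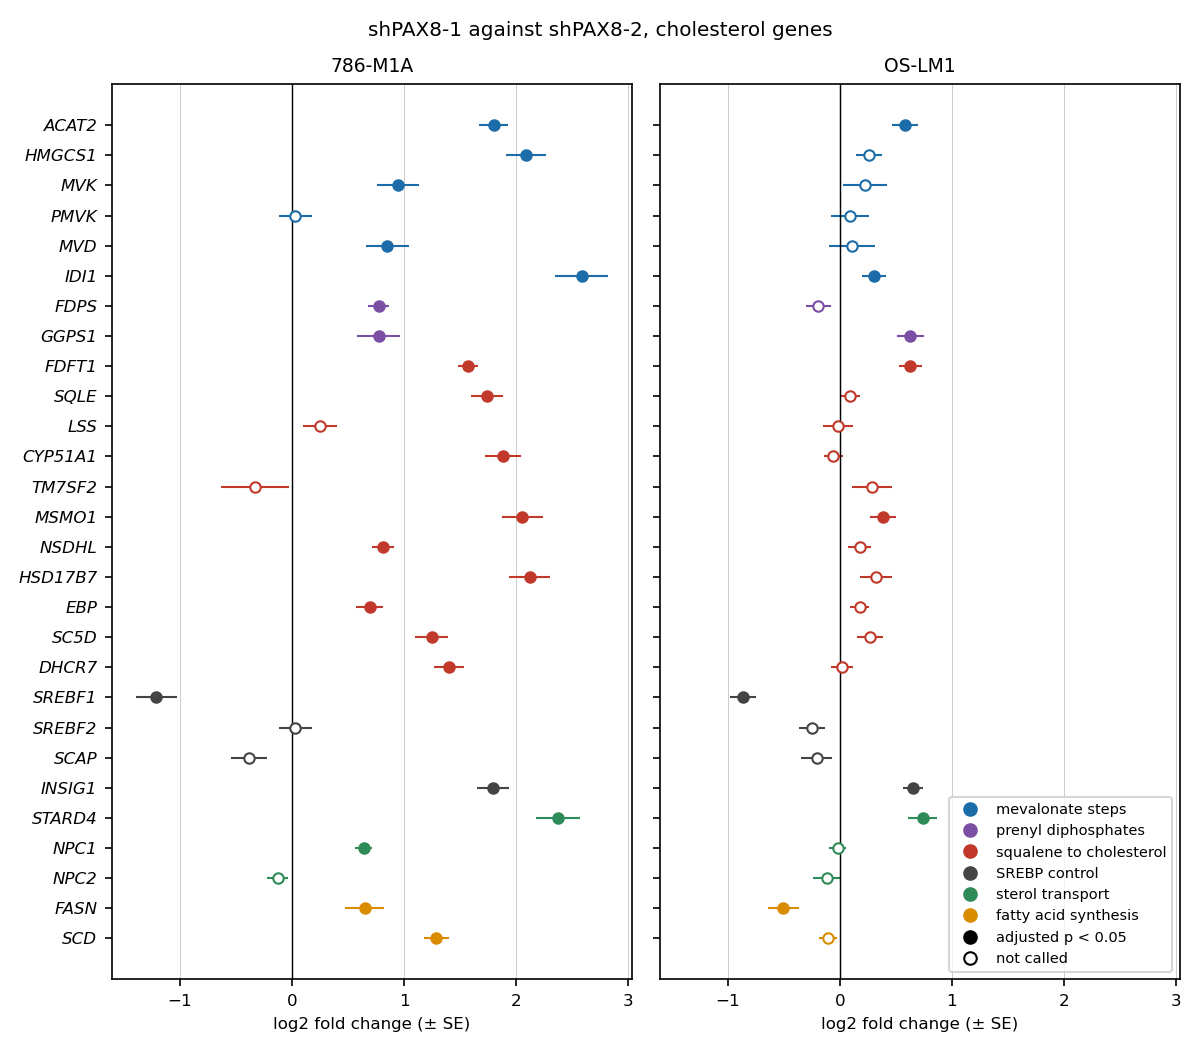
Log2 fold change of shPAX8-1 against shPAX8-2 (x axis, bars ± SE) for each of the 28 genes (rows, coloured by role) in 786-M1A (left) and OS-LM1 (right), with filled points at an adjusted p under 0.05. In 786-M1A 21 genes lie to the right of 0 as filled points and SREBF1 alone to the left, and in OS-LM1 7 lie to the right and 2 to the left.

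Among the mevalonate genes, IDI1, which isomerises isopentenyl diphosphate, was at 171, 163, 336 and 350 CPM in the 4 shPAX8-1 libraries of 786-M1A (replicates 1 to 4) and at 41.5, 42.9, 46.7 and 38.9 in the 4 shPAX8-2 libraries. The lowest shPAX8-1 library was thus far above the highest shPAX8-2 library, and replicates 3 and 4 of shPAX8-1 stood well above replicates 1 and 2. The log2 fold change was 2.58 ± 0.24 (SE, adjusted p = 2.5e-06), the largest of the 28 genes. HMGCS1, the cytosolic HMG-CoA synthase, was at 94.6, 81.9, 145 and 155 against 28.2, 29.6, 27.4 and 26.9 CPM. Its groups were as clearly apart, with the same pair of libraries highest, and the log2 fold change was 2.09 ± 0.18 (adjusted p = 1.7e-06). ACAT2, the cytosolic acetoacetyl-CoA thiolase at the head of the pathway, was at 29.3, 27.4, 31.1 and 33.9 against 9.56, 8.26, 7.96 and 9.13 CPM, a log2 fold change of 1.80 ± 0.13 (adjusted p = 3.2e-07) with little spread in either group.

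MVK, mevalonate kinase, was lower in level, at 8.89, 7.82, 6.14 and 6.3 against 4.44, 3.72, 3.4 and 3.53 CPM, and did not overlap between groups. MVD, mevalonate diphosphate decarboxylase, was at 42.5, 31.4, 21.5 and 23.6 against 18.4, 18.3, 14.5 and 14.7 CPM, and here replicates 1 and 2 of shPAX8-1 were the higher pair. Their log2 fold changes were 0.95 and 0.85. PMVK, the phosphomevalonate kinase between those steps, was not called (0.03 ± 0.15, adjusted p = 0.88). The prenyl diphosphate synthases differed less. FDPS, which makes farnesyl diphosphate, was at 133, 117, 110 and 113 against 69.1, 69, 61.1 and 77.7 CPM, and all of the first group lay above the second. GGPS1, which makes geranylgeranyl diphosphate, was at 29.2, 31.8, 56.6 and 51.4 against 22.8, 24.3, 28.3 and 23.6 CPM, where replicates 1 and 2 of shPAX8-1 were only slightly above shPAX8-2. Both had a log2 fold change of 0.77.

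From squalene onwards, MSMO1, the methylsterol monooxygenase that oxidises the C4 methyl groups, was at 762, 613, 1140 and 1200 CPM with shPAX8-1 and 241, 210, 240 and 208 with shPAX8-2. HSD17B7, a ketosteroid reductase of the same C4 demethylation, was at 37.8, 31.6, 57.6 and 56.5 against 9.84, 10.1, 10.1 and 12.1 CPM. CYP51A1, the lanosterol 14-alpha-demethylase, was at 135, 118, 202 and 201 against 44.2, 40.4, 49 and 44.8 CPM. In all 3 genes the groups were apart, and replicates 3 and 4 were the higher shPAX8-1 libraries. The log2 fold changes were 2.05 ± 0.18 for MSMO1 (adjusted p = 2e-06), 2.12 ± 0.18 for HSD17B7 (adjusted p = 1.5e-06) and 1.88 ± 0.16 for CYP51A1 (adjusted p = 1.5e-06). NSDHL, the dehydrogenase that acts between the other C4 demethylation enzymes, differed less, at 71.3, 65.6, 61.9 and 69.7 against 38.2, 38.7, 33.7 and 42.7 CPM (log2 fold change 0.81).

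SQLE, the squalene epoxidase and a slow step of the pathway, was at 475, 422, 663 and 671 CPM with shPAX8-1 against 169, 157, 184 and 159 with shPAX8-2 (log2 fold change 1.74 ± 0.14, adjusted p = 9.8e-07). FDFT1, squalene synthase, was at 277, 243, 269 and 281 against 88.4, 94.9, 87.9 and 88.6 CPM. Its 4 shPAX8-1 libraries lay close together, with no step between the first and the last pair, and the log2 fold change of 1.57 ± 0.09 had the smallest adjusted p of the set (5.8e-08). FDFT1 was already known to be among the top genes of this comparison when the set was chosen. Its rank here, and its place among the genes counted as higher, are thus no independent result. DHCR7, which reduces 7-dehydrocholesterol to cholesterol, was at 341, 258, 232 and 235 against 105, 109, 82.5 and 107 CPM (log2 fold change 1.40), with replicate 1 highest. SC5D, the enzyme that makes 7-dehydrocholesterol, was at 99.2, 90.4, 141 and 150 against 53.3, 47.1, 53.4 and 48.9 CPM (log2 fold change 1.25). EBP, the sterol isomerase, was at 98.8, 78.9, 69.7 and 68.7 against 50.6, 47.7, 46.9 and 50.3 CPM (log2 fold change 0.69), and the groups of both genes did not overlap. Neither LSS, the lanosterol synthase (0.25 ± 0.15, adjusted p = 0.18), nor TM7SF2, a sterol reductase (-0.33 ± 0.30, adjusted p = 0.39), was called.

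The control genes split. INSIG1 was at 1270, 864, 1420 and 1410 CPM with shPAX8-1 against 410, 389, 299 and 338 with shPAX8-2, a log2 fold change of 1.79 ± 0.15 (adjusted p = 1e-06), with replicate 2 the lowest of its group. SREBF1 went the other way, at 41.5, 33.3, 22.3 and 23.6 against 79, 78.2, 55.7 and 66.4 CPM, every shPAX8-1 library below every shPAX8-2 library. Its log2 fold change was -1.21. SREBF2 was at 312, 241, 193 and 187 against 255, 247, 198 and 215 CPM, overlapping groups with a log2 fold change of 0.03 ± 0.15, and SCAP was not called (-0.39 ± 0.16, adjusted p = 0.059).

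STARD4, a cytosolic carrier of cholesterol, was at 132, 132, 234 and 238 against 36.9, 33.9, 39.7 and 31.7 CPM (log2 fold change 2.37 ± 0.20, adjusted p = 1.4e-06), second to IDI1 in size. NPC1, the lysosomal membrane protein that exports cholesterol, was at 1090, 979, 1030 and 1010 against 676, 680, 659 and 631 CPM, tight and separate groups with a log2 fold change of 0.64. NPC2, its soluble partner in the lysosome, was not called (-0.13 ± 0.10, adjusted p = 0.29). SCD, the desaturase that makes oleate, was at 2280, 1710, 2110 and 2030 against 926, 872, 744 and 790 CPM (log2 fold change 1.29). FASN, the fatty acid synthase, was at 282, 219, 166 and 146 against 143, 147, 114 and 115 CPM (log2 fold change 0.65), and its lowest shPAX8-1 library, replicate 4, lay within the shPAX8-2 range.

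**Figure D3:**
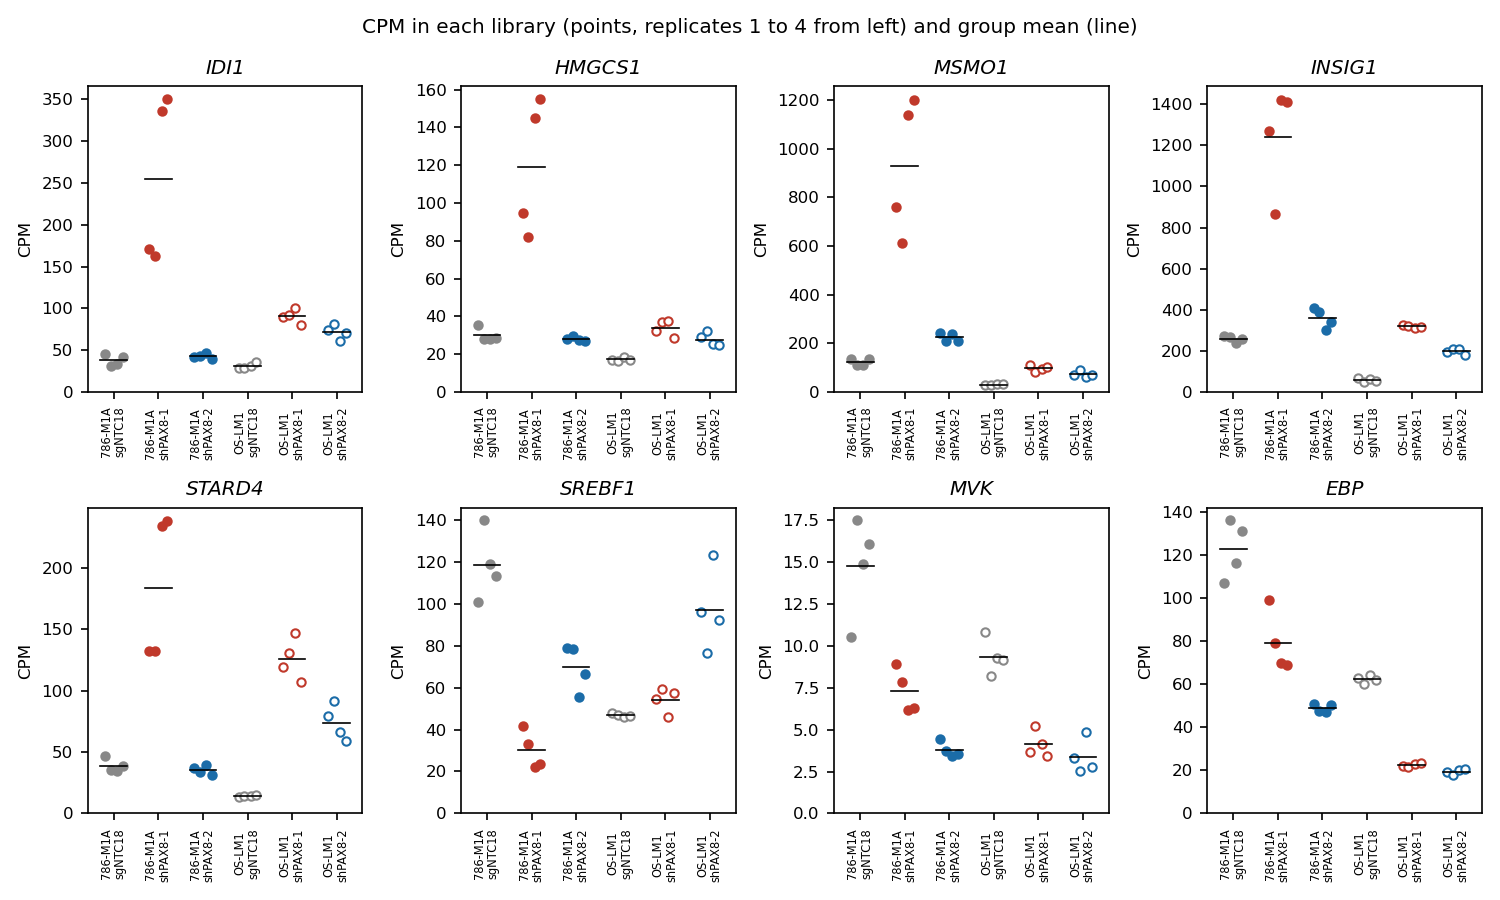
CPM (y axis, linear from 0, a scale for each panel) of 8 genes in all 24 libraries (points, replicates 1 to 4 from left to right in each group) with the group mean (line). With shPAX8-1 in 786-M1A, IDI1, HMGCS1, MSMO1, INSIG1 and STARD4 stand above every other 786-M1A library, SREBF1 stands below, and MVK and EBP are highest with sgNTC18.

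The shPAX8-1 libraries of 786-M1A stood in 2 pairs. Replicates 3 and 4 were both above replicates 1 and 2 in 12 of the 28 genes, and both below in another 12, close to the 37.2% and 36.7% of all genes tested that did either, so the step ran through the whole libraries. The first 12 include STARD4, SC5D and MSMO1 (34.4%, 36.9% and 37.4% GC in the transcript), and the second 12 include TM7SF2, MVD and SREBF1 (64.2%, 63.7% and 63.2% GC). With replicates 1 and 2 alone the log2 fold change against shPAX8-2 was 1.98 for IDI1, 1.90 for STARD4, 1.62 for MSMO1 and 1.54 for FDFT1, and with replicates 3 and 4 alone it was 3.01, 2.73, 2.38 and 1.60. The numbers of the 28 genes called higher and lower were 21 and 1 with the first pair and 20 and 4 with the second. Over all genes the numbers differed far more, at 1905 and 1964 with the first pair and 4430 and 4618 with the second. With the trend of each library with GC content removed, 24 of the 28 genes were higher and 2 lower, and 3726 and 3070 of all genes. Under that correction SREBF1 moved from -1.21 to -0.65, GGPS1 from 0.77 to 0.41 and SC5D from 1.25 to 0.77, whereas MVD rose to 1.42, FASN to 1.24 and FDPS to 1.16, and PMVK (0.53), LSS (0.70), SREBF2 (0.44) and NPC2 (-0.29) became called.

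In OS-LM1 the constructs differed in fewer of these genes. Of the 28, 7 were higher with shPAX8-1, against 12.4% of all 15049 genes tested, and 2 were lower, against 16.7% of all genes. The median log2 fold change was 0.14 over the set and -0.03 over all genes. In 6 genes all shPAX8-1 libraries lay above all shPAX8-2 libraries, which 12.4% of all genes did. The genes higher with shPAX8-1 were STARD4, INSIG1, GGPS1, FDFT1, ACAT2, MSMO1 and IDI1, and those lower were SREBF1 and FASN.

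STARD4 was at 119, 131, 147 and 107 CPM in the OS-LM1 libraries with shPAX8-1 and at 79.4, 91.6, 66 and 58.6 with shPAX8-2 (log2 fold change 0.74 ± 0.13, adjusted p = 2e-04). INSIG1 was at 328, 323, 312 and 318 against 196, 208, 211 and 180 CPM, tight in both groups (0.66 ± 0.09, adjusted p = 2.1e-05). GGPS1 was at 48.5, 43, 62.1 and 48.1 against 28.7, 38.4, 29.4 and 31.4 CPM (0.63 ± 0.12, adjusted p = 0.00061). All of these groups were apart without overlap. FDFT1 was at 70.1, 54.2, 59.2 and 66.4 against 36.7, 37.1, 40.3 and 43.9 CPM, also apart (0.63 ± 0.10, adjusted p = 0.00014). SREBF1 was again the gene that went lower, at 54.5, 59.3, 46.1 and 57.3 against 96, 76.4, 123 and 92 CPM (-0.86 ± 0.12, adjusted p = 1.5e-05), and every shPAX8-1 library was below every shPAX8-2 library. The other differences were small. ACAT2 had a log2 fold change of 0.58 ± 0.12 (adjusted p = 0.00082), MSMO1 0.39 ± 0.12 (adjusted p = 0.016), IDI1 0.31 ± 0.10 (adjusted p = 0.034) and FASN -0.50 ± 0.14 (adjusted p = 0.01). FASN was no longer called without replicate 3 of OS-LM1 shPAX8-2, where it became -0.28, and neither was MSMO1 without replicate 1 of OS-LM1 shPAX8-1 (0.33). IDI1 was no longer called without any one of 5 of the 8 shPAX8 libraries (replicate 1 or 3 of shPAX8-1, or replicate 1, 3 or 4 of shPAX8-2), with values from 0.25 to 0.33.

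The difference between the lines was tested directly, as the construct difference in OS-LM1 minus that in 786-M1A. It was negative in 18 of the 28 genes at an adjusted p under 0.05, against 14.5% of all 15665 genes tested, and positive in 0, against 12.7% of all genes. DESeq2 also gave 18 negative and 0 positive, where over all genes it gave 2526 negative and 2225 positive. At an unadjusted p under 0.05 edgeR gave 20 negative and 0 positive. All genes were not counted at that looser threshold, so these counts have no share to stand beside and add no support. The largest were IDI1 (-2.25 ± 0.26, adjusted p = 7.1e-07), CYP51A1 (-1.91 ± 0.18, adjusted p = 3.8e-08), HMGCS1 (-1.79 ± 0.22, adjusted p = 1.3e-06) and HSD17B7 (-1.76 ± 0.22, adjusted p = 2.4e-06). SREBF1, lower with shPAX8-1 in both lines, had a difference of 0.38 ± 0.23 (adjusted p = 0.23), and GGPS1 of -0.11 ± 0.23 (adjusted p = 0.76). The remaining PAX8 differed between constructs in 786-M1A and not detectably in OS-LM1, and its part in these differences was not tested.

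Each construct was also set against sgNTC18 of the same line, with the limit on this control given above. All 4 comparisons called a majority of all genes, and both constructs of a line share their 4 control libraries. In 786-M1A shPAX8-1 gave 17 genes higher (36.1% of all genes) and 5 lower (34.5%), with a median log2 fold change of 1.06 against 0.03 for all genes. With shPAX8-2 in the same line 7 were higher (31.5%) and 8 lower (30.9%), with a median of 0.04, near the 0.02 of all genes. In OS-LM1 shPAX8-1 gave 14 higher (35.6%) and 9 lower (35.8%), and shPAX8-2 15 higher (34.3%) and 9 lower (34.1%), with medians of 0.32 and 0.38 against -0.01 for all genes in both. With the GC trend removed the counts higher and lower became 23 and 3 for shPAX8-1 in 786-M1A, 11 and 10 for shPAX8-2 in 786-M1A, and 16 and 5 for each construct in OS-LM1. Over all 14452 genes tested in 786-M1A they became 5723 and 5152 with shPAX8-1 and 5304 and 4892 with shPAX8-2. Over all 15049 in OS-LM1 they became 5721 and 5068, and 5462 and 4867. The counts of the set with shPAX8-2 in 786-M1A were near the shares of all genes.

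**Figure D4:**
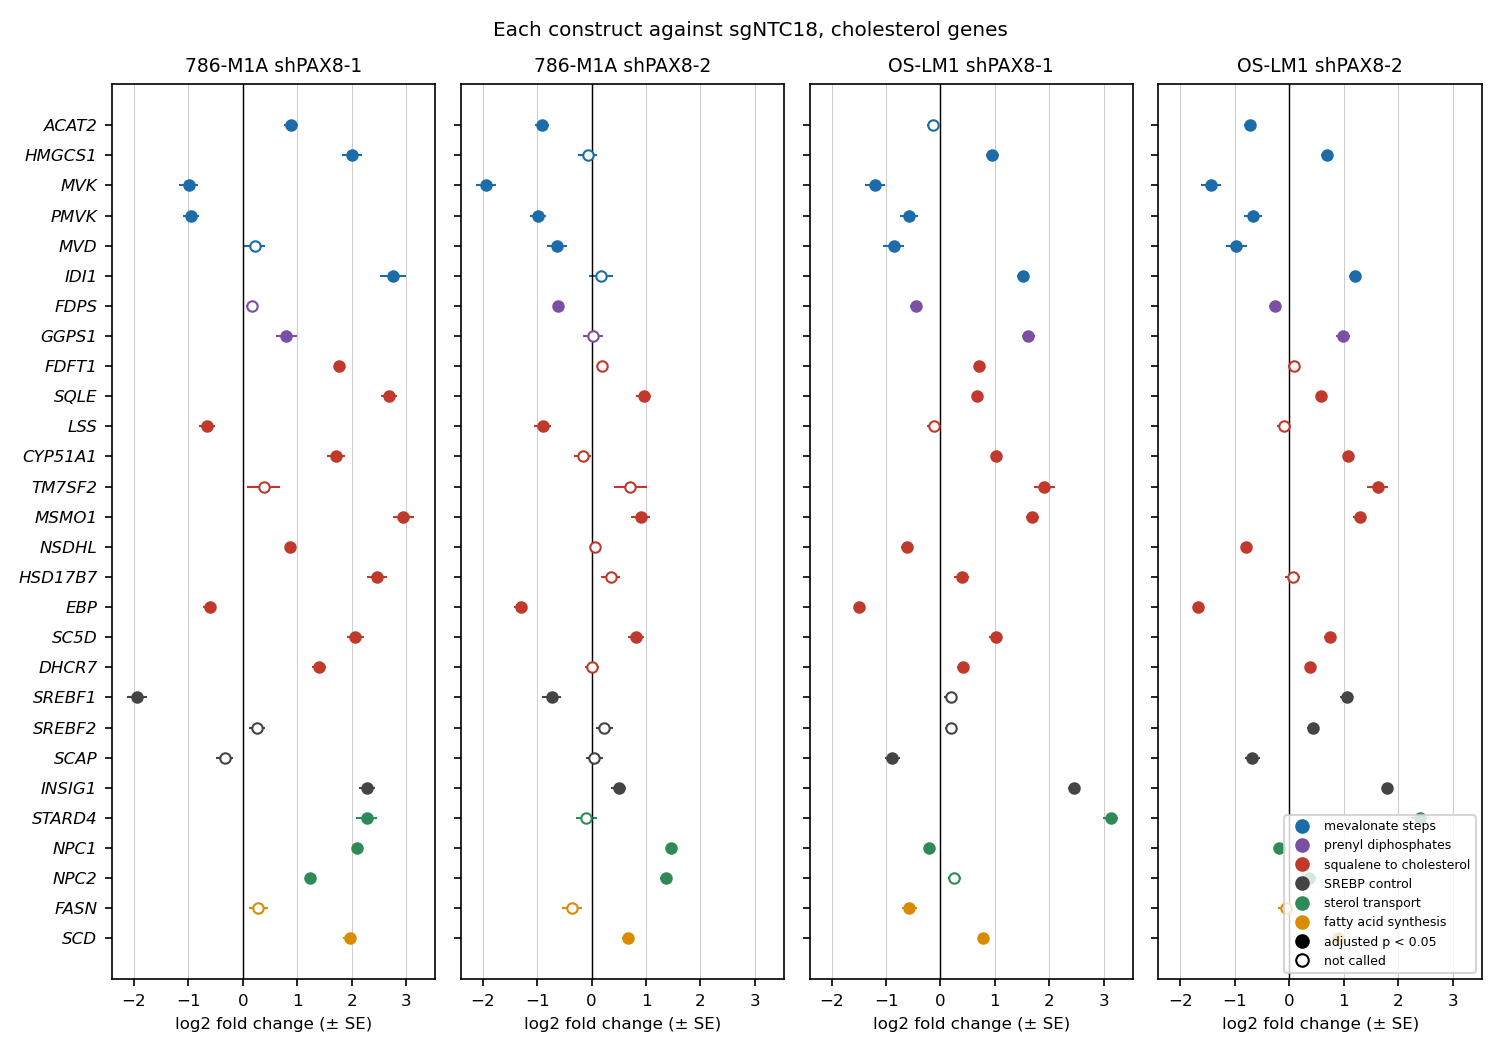
Log2 fold change against sgNTC18 (x axis, bars ± SE) for the 28 genes (rows, coloured by role) in 4 panels, both constructs in 786-M1A and both in OS-LM1, with filled points at an adjusted p under 0.05. SQLE, MSMO1, SC5D, INSIG1 and SCD are filled and right of 0 in all panels, and MVK, PMVK and EBP are filled and left of 0 in all panels.

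Some genes moved the same way in all 4 of these comparisons, in numbers near the shares of all genes that did so. SQLE, MSMO1, SC5D, INSIG1 and SCD were higher in each, 5 of 28 genes where 12.5% of the 13737 genes tested in both lines were, and MVK, PMVK and EBP were lower in each, 3 of 28 where 14.6% of all genes were. In MSMO1 the sgNTC18 libraries were at 135, 110, 109 and 135 CPM in 786-M1A and 28.8, 26.5, 33 and 30.6 in OS-LM1, below all of their line's depleted libraries, which in OS-LM1 were at 110, 82.5, 93.6 and 103 with shPAX8-1 and 70.3, 90.3, 62.7 and 68 with shPAX8-2. The log2 fold changes were 2.95 and 0.90 with shPAX8-1 and shPAX8-2 in 786-M1A, and 1.68 and 1.30 in OS-LM1. SC5D was at 31.8, 26.7, 27.5 and 30.5 CPM in the sgNTC18 libraries of 786-M1A. In OS-LM1 it was at 24.2, 23.5, 28.6 and 25.1 with sgNTC18, 56.7, 45.6, 55.3 and 50.8 with shPAX8-1 and 39.2, 52.2, 35.8 and 42.3 with shPAX8-2, and its log2 fold change ran from 0.74 to 2.07 over the 4 comparisons. SCD was at 590, 470, 492 and 561 CPM with sgNTC18 in 786-M1A. In OS-LM1 it was at 162, 139, 170 and 157, 250, 302, 277 and 268 and 280, 288, 306 and 284 with sgNTC18, shPAX8-1 and shPAX8-2, again without overlap with the control, and its log2 fold changes ran from 0.68 to 1.96.

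SQLE was at 98.3, 83.3, 86.9 and 82.2 CPM with sgNTC18 in 786-M1A. Its levels in OS-LM1 were 32.8, 28.5, 30.5 and 29.6 with sgNTC18, 46.7, 46.1, 56.2 and 47.8 with shPAX8-1 and 46.7, 43.3, 43.9 and 47.2 with shPAX8-2, so that the change in OS-LM1 (0.67 and 0.58) was small beside that with shPAX8-1 in 786-M1A (2.69). INSIG1 was at 270, 266, 240 and 259 CPM with sgNTC18 in 786-M1A and 68, 49.7, 61 and 52.5 in OS-LM1, and there the larger changes were in OS-LM1 for shPAX8-2 (1.79 against 0.49). MVK was at 10.5, 17.5, 14.9 and 16.1 CPM with sgNTC18 in 786-M1A and 10.8, 8.17, 9.27 and 9.16 in OS-LM1, where shPAX8-1 gave 3.69, 5.24, 4.13 and 3.45 and shPAX8-2 3.29, 2.51, 4.86 and 2.79. All control libraries were above all depleted ones in both lines, and the log2 fold change ran from -1.94 to -0.99. EBP was at 107, 136, 116 and 131 CPM with sgNTC18 in 786-M1A and 62.8, 60, 64.1 and 61.7 in OS-LM1, against 22.1, 21.3, 23.1 and 23.4 with shPAX8-1 and 19, 18, 20.3 and 20.4 with shPAX8-2 in the latter, with log2 fold changes from -1.67 to -0.61. The fall in PMVK (log2 fold changes from -0.99 to -0.58) depended on the GC correction, under which it was -0.31, -0.83, 0.00 and -0.26 in the order of the panels and called in 1 of 4. MVK and EBP kept their calls in all 4 under that correction, though in 786-M1A with shPAX8-1 MVK moved to -0.37 and EBP to -0.21, and TM7SF2 and SREBF2 joined the genes higher in all 4.

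Other genes differed by line or construct. The largest rises against sgNTC18 in 786-M1A with shPAX8-1 were MSMO1 (2.95 ± 0.19, adjusted p = 3.8e-09), IDI1 (2.75 ± 0.24, adjusted p = 8e-08) and SQLE (2.69 ± 0.15, adjusted p = 8.1e-10), followed by HSD17B7, INSIG1, STARD4, NPC1, SC5D and HMGCS1 between 2.47 and 2.01. With shPAX8-2 they were NPC1 (1.46 ± 0.08, adjusted p = 2e-09) and NPC2 (1.36 ± 0.10, adjusted p = 2.3e-08), both of lysosomal export, while HMGCS1 (-0.08), IDI1 (0.17), CYP51A1 (-0.17), STARD4 (-0.10) and DHCR7 (0.00) were not called. In OS-LM1 the largest with both constructs was STARD4, at 13.1, 14.1, 14.3 and 14.8 CPM with sgNTC18, (3.13 ± 0.14 with shPAX8-1, adjusted p = 2.1e-13, and 2.39 ± 0.14 with shPAX8-2, adjusted p = 1e-11), then INSIG1 (2.45 ± 0.10 and 1.79 ± 0.09). TM7SF2 followed in OS-LM1 (1.91 ± 0.19 and 1.62 ± 0.19), from a low level of 1.92, 1.64, 1.75 and 1.81 CPM with sgNTC18. SREBF1 was lower in 786-M1A with shPAX8-1 (-1.95) and with shPAX8-2 (-0.74), and in OS-LM1 was higher with shPAX8-2 (1.05 ± 0.12, adjusted p = 1.4e-07) and not called with shPAX8-1 (0.19 ± 0.12, adjusted p = 0.15).

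The dependence on line was tested as the mean change of both constructs against sgNTC18 in OS-LM1 minus that in 786-M1A. It was positive in 6 of 28 genes (29.9% of all genes) and negative in 12 (28.8%). SREBF1 (1.99 ± 0.20, adjusted p = 3e-09) and STARD4 (1.71 ± 0.21, adjusted p = 1.4e-07) were the largest positive differences, and TM7SF2 (1.25 ± 0.32) followed. NPC1 (-1.94 ± 0.09, adjusted p = 6.7e-16) was the largest negative one. In NPC1 the control libraries were at 264, 228, 248 and 236 CPM in 786-M1A and 92, 85.1, 96.6 and 89.9 in OS-LM1. Depleted OS-LM1 libraries were at 80, 85.6, 76.9 and 78.8 with shPAX8-1 and 79, 76.1, 82.4 and 81.1 with shPAX8-2. On the log2 scale NPC1 thus rose by 2.10 and 1.46 in 786-M1A. In OS-LM1 it was called lower with both constructs, by small amounts (-0.20 and -0.18). SQLE, HSD17B7 and NSDHL also had negative differences over 1 in size (-1.16, -1.15 and -1.14).

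The lines differed in the level of the pathway before any depletion. In the sgNTC18 libraries 23 of the 28 genes were lower in OS-LM1 than in 786-M1A (31.0% of all genes were lower) and 1, NPC2, was higher (32.0% of all genes). The median log2 fold change was -0.91 over the set and 0.01 over all genes tested. INSIG1 (-2.16 ± 0.13, adjusted p = 6.5e-14), MSMO1 (-2.04 ± 0.16, adjusted p = 2.4e-11) and MVD (-1.89 ± 0.19, adjusted p = 3e-09) differed most. SREBF2, which encodes SREBP2, was at 180, 217, 204 and 186 CPM in 786-M1A and 66.6, 45, 60.8 and 53.7 in OS-LM1 (-1.80 ± 0.14, adjusted p = 2.7e-11). SREBF2 thus lay lower in all OS-LM1 control libraries than in any of 786-M1A. LSS (-1.77), SCD (-1.75), DHCR7 (-1.71), SQLE (-1.53), STARD4 (-1.45) and NPC1 (-1.42) completed the 10 largest. ACAT2, IDI1, TM7SF2 and SC5D were not called, with log2 fold changes from -0.47 to -0.05.

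In the depleted libraries, both constructs pooled, 23 genes were lower in OS-LM1 (41.5% of all genes) and 3 were higher (41.7%), with a median of -1.07 against 0.00. NPC1 had the largest difference (-3.37 ± 0.06, adjusted p = 2e-26), followed by SQLE (-2.69 ± 0.09, adjusted p = 2e-20), MVD (-2.56 ± 0.15), MSMO1 (-2.44 ± 0.12) and SCD (-2.21 ± 0.07). TM7SF2 (0.78), SREBF1 (0.66) and GGPS1 (0.32) were the genes higher in OS-LM1. With the GC trend removed the numbers of genes higher and lower in OS-LM1 were 1 and 22 for sgNTC18 and 3 and 22 for the depleted libraries. Over all genes they were 5965 and 4590 for sgNTC18 and 7154 and 6145 for the depleted libraries.

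Levels between genes were compared in TPM (transcript levels, scaled by gene length), as means of 4 libraries. In the sgNTC18 libraries of 786-M1A they ran from 2.94 TPM for TM7SF2 to 308 for NPC2, the highest, with EBP (201), SCD (179), INSIG1 (162), FDPS (151) and MSMO1 (106) also above 100. With shPAX8-1 in that line MSMO1 (748) and INSIG1 (710) were the highest, next to NPC2 (658) and SCD (634), whose ranges overlap theirs, and SQLE reached 320. With shPAX8-2 NPC2 (715) was above all others by a wide margin, followed by SCD (259), NPC1 (234) and INSIG1 (204). MVK was the lowest with shPAX8-2 in 786-M1A (3.14) and with both constructs in OS-LM1 (3.77 and 2.83). NPC2 was the highest of the set in all OS-LM1 groups (366 with sgNTC18, 446 with shPAX8-1 and 458 with shPAX8-2). In OS-LM1 with sgNTC18, the genes under 10 TPM were TM7SF2 (2.02), LSS (4.98), HMGCS1 (5.52), HSD17B7 (6.26), SC5D (6.36), MVD (6.68), STARD4 (6.81) and MVK (8.04).

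**Figure D5:**
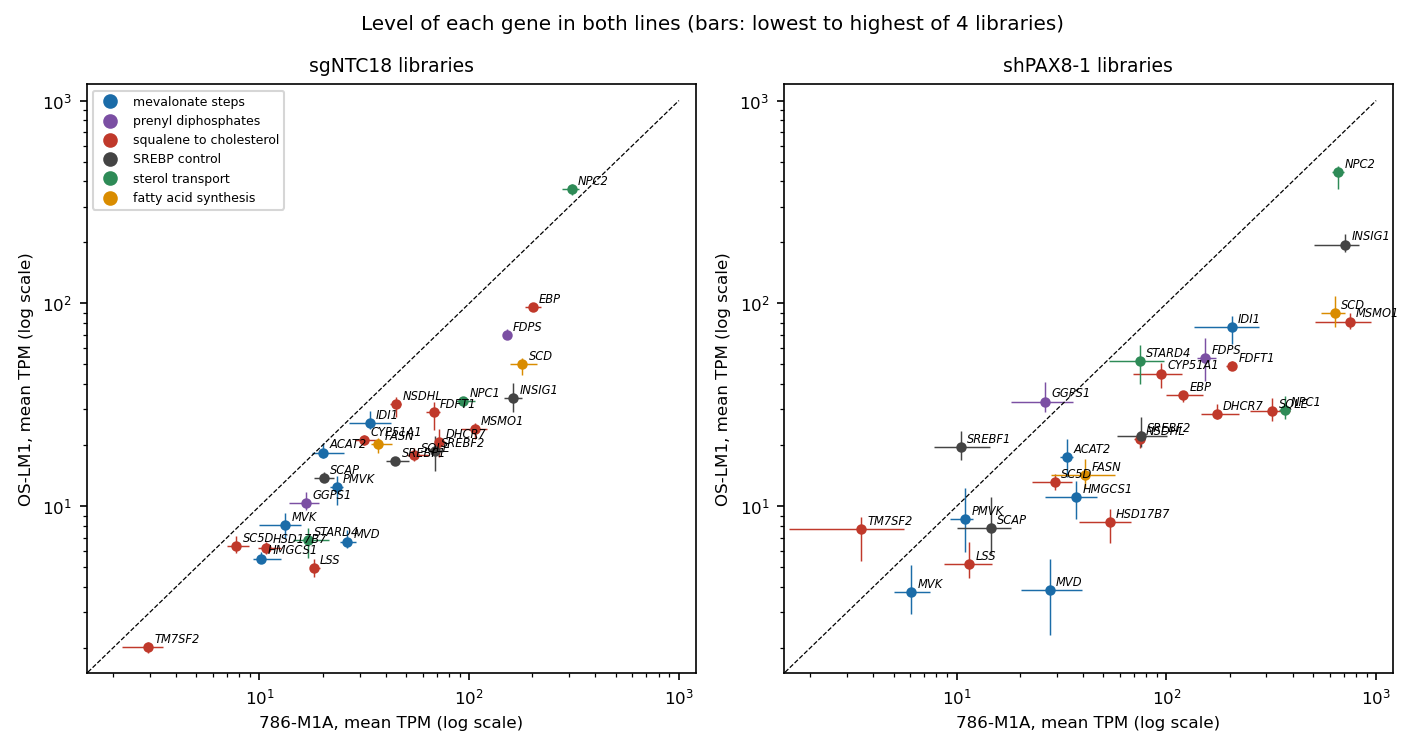
Mean TPM of each of the 28 genes in 786-M1A (x axis, log scale) and OS-LM1 (y axis, log scale) in the sgNTC18 libraries (left) and the shPAX8-1 libraries (right), with bars from the lowest to the highest of 4 libraries and a dashed line at equal levels. With sgNTC18 all genes but NPC2 lie below the line, and with shPAX8-1 TM7SF2, SREBF1 and GGPS1 lie above it.

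A further 32 genes of neighbouring pathways, listed by role and not by their change, were read beside the set. Between constructs in 786-M1A, 11 of the 30 tested were higher with shPAX8-1 (24.2% of all genes) and 6 lower (22.9%), with a median log2 fold change of 0.11. Of these, 7 of 8 genes of fatty acid synthesis and activation were higher, among them ACSL3, an acyl-CoA synthetase (1.14 ± 0.17, adjusted p = 0.00013), and ACSS2, which activates acetate (1.08 ± 0.13, adjusted p = 2.4e-05), while FNTB, the beta subunit of farnesyltransferase, was lower (-1.10 ± 0.24, adjusted p = 0.0022). In the groups of SREBP processing, sterol transport and esterification, LXR and efflux, and enzymes that use prenyl diphosphates, 4 of 22 tested were higher and 5 lower, near those shares of all genes. In OS-LM1 3 of 32 were higher (12.4% of all genes) and 7 lower (16.7%), with a median of -0.15, FNTB (-1.62 ± 0.19, adjusted p = 2.9e-06) and TMEM97, a sterol-regulated membrane protein (-0.94 ± 0.11, adjusted p = 5.2e-06), by most. GRAMD1A came next (-0.55 ± 0.11, adjusted p = 0.00093). The construct difference depended on line in 10 of these 32 genes, 2 positive (12.7% of all genes) and 8 negative (14.5%), of which 6 were fatty acid genes led by ACSL3 (-1.30 ± 0.20, adjusted p = 2.9e-05), ACSS2 (-0.88) and ELOVL5 (-0.78).

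Against sgNTC18, 16 of the 30 were higher (36.1% of all genes) and 7 lower (34.5%) in 786-M1A with shPAX8-1, and 8 higher (31.5%) and 7 lower (30.9%) with shPAX8-2. LPCAT3, an LXR target of phospholipid remodelling (-2.45 ± 0.15 and -1.46 ± 0.14), and ACLY, which makes cytosolic acetyl-CoA from citrate (-1.55 ± 0.10 and -1.17 ± 0.10), fell most with both. Next in size were ELOVL5, a fatty acid elongase, with shPAX8-1 (1.24 ± 0.13) and NR1H3, the gene of LXR alpha, with shPAX8-2 (1.01 ± 0.20). In OS-LM1 12 of 32 were higher (35.6% of all genes) and 13 lower (35.8%) with shPAX8-1, and 13 higher (34.3%) and 12 lower (34.1%) with shPAX8-2, counts near those shares. ABCG1, a sterol efflux pump, had the largest change in both (2.62 ± 0.39 and 2.84 ± 0.38), from at most 0.225 CPM with sgNTC18. TMEM97 (-1.62 ± 0.11) and FNTB (-1.62 ± 0.18) followed with shPAX8-1, and GRAMD1B, a sterol transfer protein (1.66 ± 0.12), and ELOVL6, a fatty acid elongase (-1.35 ± 0.11), with shPAX8-2. Between lines 9 of the 32 were higher (32.0% of all genes) and 13 lower (31.0%) in OS-LM1 with sgNTC18, and 9 higher (41.7%) and 17 lower (41.5%) in the depleted libraries. GRAMD1B and ABCG1 came first in both, but no 786-M1A library was above 0.205 CPM for GRAMD1B or 0.0324 for ABCG1, so levels are given in place of a fold change. In OS-LM1 GRAMD1B was at 4.79 to 5.57 CPM with sgNTC18, 13.3 to 15.9 with shPAX8-1 and 14.1 to 17.6 with shPAX8-2, and ABCG1 was at 0.121 to 0.225, 0.729 to 1.9 and 0.98 to 1.79. The next in size were FADS2, a fatty acid desaturase, with sgNTC18 (-2.78 ± 0.10, adjusted p = 3e-18) and LPCAT3 in the depleted libraries (2.42 ± 0.09, adjusted p = 3.5e-19). The mean change of both constructs against sgNTC18 depended on line in 18 of them, 9 positive (29.9% of all genes) and 9 negative (28.8%), near those shares. GRAMD1B again came first, and LPCAT3 (2.08 ± 0.15) and ACLY (1.32 ± 0.12) followed.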

How the data were processed

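The 24 libraries form 6 groups of 4 (both hairpin constructs and sgNTC18, each in 786-M1A and in OS-LM1). Per the labels, the authors' processing used Bowtie2, RSEM and hg38. The files deposited for each library hold expected counts (RSEM's estimated counts per gene, not normalized), TPM and FPKM. FPKM, also deposited by the authors, was not used. A KAPA stranded mRNA kit stands in the labels, whereas the study's methods name Lexogen kits. The RSEM version and annotation release are not given in the sources used here. Nothing says that replicates came from separate cultures, so p-values measure the spread between these libraries, which may be technical.

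Expected counts were rounded, and replicates of a group all differed by more than counting noise. Analysis used R 4.3.3. Genes had to pass edgeR's filterByExpr (version 4.0.16), and scaling was by TMM. The robust quasi-likelihood F test was fitted to the 12 libraries of a line, or to all 24 when lines were compared, and p-values were adjusted by Benjamini-Hochberg over every gene in the fit. A gene was called at an adjusted p under 0.05. An SE is the log2 fold change over the square root of F. The fits were also tested on simulated data. CPM came from TMM over all 24 libraries. Promoter sequence came from RefSeq and guide sequence from the study's oligo list.

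The 28 genes and the gene lists were chosen with earlier results of these data known, among them that FDFT1 was a top gene between constructs in 786-M1A. Among called genes, only the 10 of largest change per comparison (or fewer) have an SE or adjusted p, and other called genes a log2 fold change alone. Named genes that were not called, some with SE and adjusted p, and the values per library of SREBF2 and TM7SF2, fall outside this rule and were chosen after their values were seen. Values per library are given for genes called between constructs with an absolute log2 fold change over 0.58, and for genes that moved by that much the same way in all 4 comparisons with sgNTC18. From 32 genes of neighbouring pathways, the 3 largest called changes per comparison are named, by levels where a group was near 0. Alternatives were RLE scaling, a looser filter (at least 1 count), DESeq2 1.42.0, single libraries left out, a replicate block, a minimum fold change as above, an adjusted p under 0.01, fits of only the compared groups, subsets of the 786-M1A shPAX8-1 libraries, and offsets that take out a GC trend (spline, 5 degrees of freedom; GC known for 87.5% of genes and 28 of 28 here).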

Additional observations from a re-analysis of the deposited data

Results flagged for a closer look

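In 8 of the 168 sets of 4 libraries (28 genes in 6 groups) the highest or lowest library stood apart from the other three by Dixon's criterion, where chance gives about 8.4. The libraries were replicate 1 of 786-M1A sgNTC18 for HMGCS1 (35.5 CPM), replicate 3 of OS-LM1 sgNTC18 for HMGCS1 (18.6 CPM), replicate 1 of OS-LM1 sgNTC18 for FDPS (57.6 CPM), replicate 2 of 786-M1A shPAX8-2 for FDFT1 (94.9 CPM), replicate 3 of OS-LM1 shPAX8-1 for SQLE (56.2 CPM), replicate 4 of 786-M1A shPAX8-2 for HSD17B7 (12.1 CPM), replicate 3 of 786-M1A shPAX8-2 for DHCR7 (82.5 CPM, the lowest of its group) and replicate 3 of OS-LM1 shPAX8-2 for SREBF2 (89.8 CPM).

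The difference between constructs itself differed between the lines in 18 of the 28 genes (adjusted p under 0.05 for the interaction, edgeR), against 12.7% of all genes positive and 14.5% negative, and all were more positive in 786-M1A. Written as the OS-LM1 difference less the 786-M1A difference (log2), the values were ACAT2 -1.19, HMGCS1 -1.79, IDI1 -2.25, FDPS -0.93, FDFT1 -0.91, SQLE -1.62, CYP51A1 -1.91, MSMO1 -1.63, NSDHL -0.60, HSD17B7 -1.76, EBP -0.49, SC5D -0.94, DHCR7 -1.35, INSIG1 -1.10, STARD4 -1.60, NPC1 -0.63, FASN -1.12 and SCD -1.36.

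The mean change of both constructs against sgNTC18 also differed between the lines in 18 of the 28 genes, where 29.9% of all genes tested were positive and 28.8% negative, so the number called is near the share of all genes. It was more positive in OS-LM1 for GGPS1 (0.92), LSS (0.70), TM7SF2 (1.25), SREBF1 (1.99), INSIG1 (0.76) and STARD4 (1.71), and more negative for ACAT2 (-0.39), MVD (-0.67), FDFT1 (-0.55), SQLE (-1.16), NSDHL (-1.14), HSD17B7 (-1.15), EBP (-0.59), SC5D (-0.53), SCAP (-0.61), NPC1 (-1.94), NPC2 (-0.95) and SCD (-0.45).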

How the results depend on the processing

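Among the called genes of largest change (at most 10 in each of 10 comparisons, 99 values in all), 95 held the same sign and call under every alternative run for their comparison, and 0 reversed. The exceptions in these 99 were ACAT2, MSMO1, IDI1 and FASN, each between constructs in OS-LM1. The number of the 28 genes called moved by over 1.5 times once, from 9 to 5 between constructs in OS-LM1 with an absolute log2 fold change over 0.58. Over all genes, an adjusted p under 0.01 lowered the count from 6803 to 4329 between constructs in 786-M1A, from 4378 to 2703 in OS-LM1 and from 4264 to 2449 for their difference. The minimum fold change gave 4335 and 1978 for the first 2 of these, and replicates 1 and 2 alone of 786-M1A shPAX8-1 gave 3869 for the first. Leaving out single libraries gave 22 to 23 of the 28 genes between constructs in 786-M1A, 7 to 11 in OS-LM1 and 18 to 20 for their difference. Over all genes the ranges were 5280 to 7916, 3558 to 4885 and 3331 to 5348. Removing the GC trend gave 26, 12 and 22 of the 28 genes, and 6796, 5060 and 4828 over all genes. It changed the sign of 21 of all 280 values of the 28 genes, 6 of them called without it and 0 called both ways, and between constructs in 786-M1A moved TM7SF2 from -0.33 to 0.20 and SCAP from -0.39 to 0.14, neither of them called, and added calls for PMVK, LSS, SREBF2 and NPC2. Levels per kilobase put 27 of 28 genes lower in OS-LM1 than in 786-M1A with sgNTC18, as CPM did. Each gene is divided by its own length in every library, so this scaling could hardly change which line was higher.

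With the replicate block, 23 genes were called between constructs in 786-M1A and 8 in OS-LM1, where IDI1 was lost (log2 fold change 0.31, adjusted p = 0.068 by edgeR). The block gave 23 and 16 for shPAX8-1 and shPAX8-2 against sgNTC18 in 786-M1A, 23 and 22 in OS-LM1, 24 and 26 between lines, and 18 for both interactions. Over all genes the counts with the block, in the same order from the first comparison on, were 6998, 3642, 10283, 9180, 10355, 9846, 9835, 12985, 4125 and 9072. The labels do not say that a number marks a shared culture or day. Residuals of libraries with the same number correlated between -0.612 and 0.59, and in no pair of groups did more than 2 of the 4 match their own number best. Between shPAX8-1 and shPAX8-2 in 786-M1A these correlations were all positive, from 0.089 to 0.59. Their mean was 0.347, against -0.118 for libraries of different number. In the other pairs of groups the mean for the same number lay between -0.15 and 0.016.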
